A study of Mus musculus with 16 samples.

Results

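Histone acetylation is set by acetyltransferases, which write it, by deacetylases, which erase it, and by bromodomain proteins, which read it. The genes for this machinery were followed in pancreatic islets of mice. The group held 36 genes chosen by symbol. They were the 11 zinc-dependent histone deacetylases (HDACs), the 7 sirtuins, 10 lysine acetyltransferases, 4 bromodomain proteins and 4 scaffolds of corepressor complexes. All 36 were found among the 52636 genes of the count table, and all 36 were among the 18587 that passed the filter on low counts. Butyrate, the fatty acid used in these cultures, is known as an inhibitor of HDAC enzymes, and the question asked here was how the transcripts of the machinery responded to it, with and without IL-1β.

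Islets of 12-week-old male mice, C57BL/6JRj in the labels and C57BL/6NRj in the study's methods, were cultured for 10 days in medium with human serum, which was renewed on day 5. They received nothing (control), recombinant mouse IL-1β at 50 pg/mL, sodium butyrate at 0.2 mM, or both (IL-1β+butyrate). Each of the 4 conditions had 4 libraries from independent experiments with 500 islets per condition pooled from several mice, so a replicate was an experiment and not an animal. There was no genetic alteration, and all islets were cultured, so no fresh islets served as a reference. The 16 libraries held 18635943 to 25955943 counts. The count of a member in a library was at least 41 for Hdac9, the lowest of the group, and at least 136 for every other member. Islet markers were abundant, and the summed level of 9 beta cell genes was 215000 to 237000 CPM (counts relative to the TMM-scaled library size) in control libraries and 138000 to 180000 CPM with IL-1β. Since RNA came from whole islets, fewer cells of a type and less RNA per cell cannot be told apart.

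HDACs of class I (Hdac1, Hdac2, Hdac3, Hdac8) are mostly nuclear, act inside complexes built on scaffolds such as SIN3, NCOR and CoREST, and are among the enzymes that butyrate inhibits. Class IIa enzymes shuttle between nucleus and cytoplasm, class IIb holds the tubulin deacetylase HDAC6, and sirtuins need NAD and act in the nucleus, cytoplasm or mitochondria. The writers fall into the p300/CBP pair, the GNAT family (Kat2a, Kat2b), Hat1, which acetylates newly made histone H4, and the MYST family (Kat5 to Kat8).

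Of the 36 members, 32 had a promoter in the RefSeq table (GRCm38.p6), and Hdac1, Hdac3, Hdac10 and Kat6a had none. Sequence before the start site was considered for members called in both butyrate comparisons under every alternative fit, and for Hdac7, the member that moved most with IL-1β. It is shown where a long unbroken stretch of the 250 bases before the most upstream listed start touched no annotated exon. This left Sirt1, Kat6b and Sin3b, which fell in both comparisons, and Hdac7. In the windows of Sirt4, Kat2b and Brd9 the unbroken stretch was shorter, and they are not shown. Hat1 and Hdac6 also fell in both comparisons but lost a call in some fits, and were not considered. Capitals mark the GC box GGGCGG, the CCAAT box and the E-box CACGTG, each searched on both strands, with overlapping matches counted separately. The stretches are chr10:63339051-63339285 on the minus strand for Sirt1, ending 15 bases before the start site, chr14:21499520-21499769 on the plus strand for Kat6b, chr8:72723020-72723269 on the plus strand for Sin3b and chr15:97844503-97844752 on the minus strand for Hdac7, the last 3 ending at the start site.
Sirt1: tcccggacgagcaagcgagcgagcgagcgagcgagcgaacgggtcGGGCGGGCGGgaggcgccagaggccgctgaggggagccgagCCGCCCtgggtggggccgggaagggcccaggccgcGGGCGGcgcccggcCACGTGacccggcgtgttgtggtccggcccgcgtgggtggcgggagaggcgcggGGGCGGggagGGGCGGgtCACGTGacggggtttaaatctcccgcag
Kat6b: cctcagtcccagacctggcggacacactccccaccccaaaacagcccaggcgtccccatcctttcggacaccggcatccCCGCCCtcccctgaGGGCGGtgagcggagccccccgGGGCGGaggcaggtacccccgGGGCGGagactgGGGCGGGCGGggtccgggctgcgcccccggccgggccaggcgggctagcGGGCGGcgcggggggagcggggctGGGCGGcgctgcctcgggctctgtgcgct
Sin3b: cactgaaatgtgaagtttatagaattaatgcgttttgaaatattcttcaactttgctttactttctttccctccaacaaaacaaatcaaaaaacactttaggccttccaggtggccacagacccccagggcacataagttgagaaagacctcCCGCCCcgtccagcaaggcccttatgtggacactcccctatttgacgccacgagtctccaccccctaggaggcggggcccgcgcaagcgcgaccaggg
Hdac7: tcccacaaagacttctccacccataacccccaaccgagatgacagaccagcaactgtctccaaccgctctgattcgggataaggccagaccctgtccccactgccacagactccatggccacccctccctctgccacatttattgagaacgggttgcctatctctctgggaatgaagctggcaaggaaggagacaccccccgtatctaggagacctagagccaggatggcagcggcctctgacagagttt

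The Kat6b stretch held 8 GC boxes and the Sirt1 stretch held 6 together with 2 E-boxes. The Sin3b stretch held 1 GC box, and the Hdac7 stretch held none of the motifs. Among the 47 listed promoters of members, 63.8% held a GC box in the 250 bases before the start site, against 32.7% of all 32851 promoters of this length. A CCAAT box was held by 36.2% of the members' promoters and 33.8% of all, and an E-box by 6.4% and 6.02%. The median GC content was 61.6% in the members' promoters and 52.4% in all. These matches describe the letters of the windows and were not tested for a relation to the responses.

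Levels are compared between genes as CPM per kb of merged exons. Brd2, a BET bromodomain protein, was the most abundant member in control islets, at 38.8 ± 2.25 CPM per kb (SD, n = 4). Hdac6 followed at 33.1 ± 1.57 and Ncor1, the scaffold of the NCOR complex, at 26.4 ± 0.924 CPM per kb. Hdac2 was the most abundant class I enzyme at 18.8 ± 0.347 CPM per kb, above Hdac3 at 13.2 ± 0.573 and Hdac1 at 9.76 ± 0.304. The lowest levels were those of Hdac8 at 1.43 ± 0.0596 and Hdac9 at 0.278 ± 0.0815 CPM per kb.

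**Figure D1:**
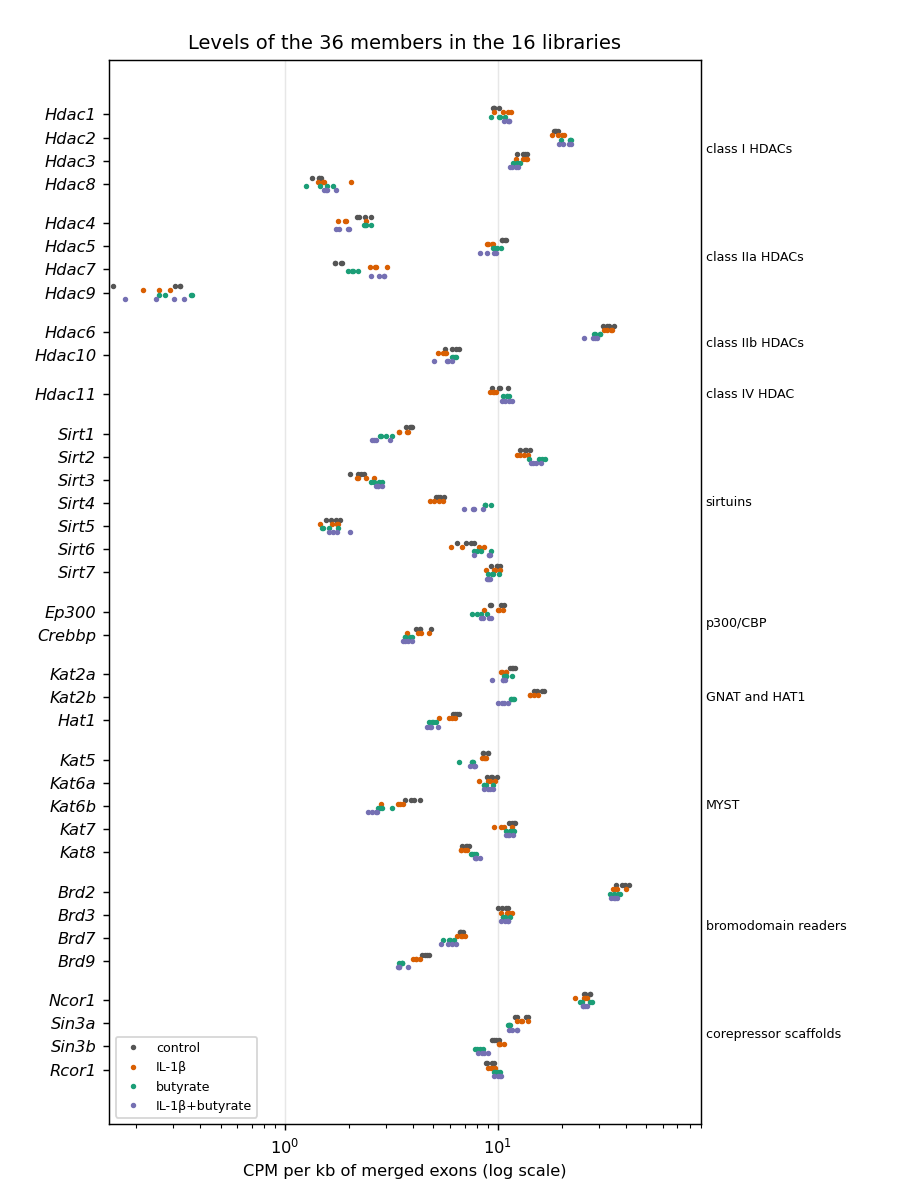
Level of each of the 36 members in CPM per kb of merged exons (log axis), 1 point per library, coloured by condition and grouped by class. Brd2 lies highest and Hdac9 lowest in every condition.

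The first comparison asked how butyrate alone changed the machinery. With butyrate, 16 of the 36 members changed in edgeR's quasi-likelihood test at an adjusted p under 0.01, which was 44.4% of the members beside 19.9% of all genes tested and 27.3% of the genes within the members' range of average expression. Of these, 4 rose (11.1% of members, 8.53% of all genes) and 12 fell (33.3% of members, 11.4% of all genes). Shares by direction were taken over all genes only, here and in the comparisons below. The median of average expression was 5.48 log2 CPM for the members and 3.3 for all genes tested. The median log2 fold change was -0.06 over the members and 0.01 over all genes. No member changed 2-fold, and the changes were from -0.45 for Kat6b to 0.73 for Sirt4. The split depended on scaling, with 6 members higher and 7 lower under upper-quartile scaling and 2 higher and 12 lower with library size alone. The split of all genes moved the same way. Of all called genes, 58.5% were higher under upper-quartile scaling and 35.1% with library size alone.

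Genes of dividing cells moved with butyrate. All 13 cycling markers fell in both butyrate comparisons, and their summed level was 134 to 255 CPM in control libraries, 110 to 169 with IL-1β, 52.9 to 69.2 with butyrate and 49.7 to 71.8 with the combination. These values stand beside the falls of the members below, and the part of dividing cells in them was not tested. Of 9 beta cell markers, 3 rose and 1 fell with butyrate. Their sum was 215000 to 237000 CPM in control libraries and 223000 to 262000 CPM with butyrate. In IL-1β+butyrate against IL-1β, 2 fell and none rose, with sums of 138000 to 170000 and 138000 to 180000 CPM. Of 6 alpha cell markers, 3 fell with butyrate and none rose. Their summed level, most of it Gcg, overlapped, at 21100 to 24200 CPM in control libraries and 18700 to 22100 CPM with butyrate. The sum was 20300 to 25800 CPM with IL-1β and 24900 to 27900 CPM with the combination. In that comparison 1 alpha cell marker rose and 3 fell. Macrophage markers summed to 125 to 140 CPM in control libraries and 82.6 to 104 CPM with butyrate, with C1qa, which held most of the sum, the 1 of 8 that passed the test. The other 7 summed to 15.5 to 25.9 CPM in control libraries and 12.1 to 21.1 CPM with butyrate. Delta cell markers were higher, at 1690 to 1990 CPM in control libraries, 2390 to 2770 with butyrate, 1740 to 2220 with IL-1β and 2620 to 3180 with the combination, and of the 3 only Sst, the somatostatin gene, passed the test (log2 0.55, and 0.61 with IL-1β present). Acinar markers summed to 18.2 to 29.5 CPM in control libraries and 13.4 to 19.4 CPM with butyrate, and none of the 3 tested passed. The part of these cells in the members' changes was not tested either.

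**Figure D2:**
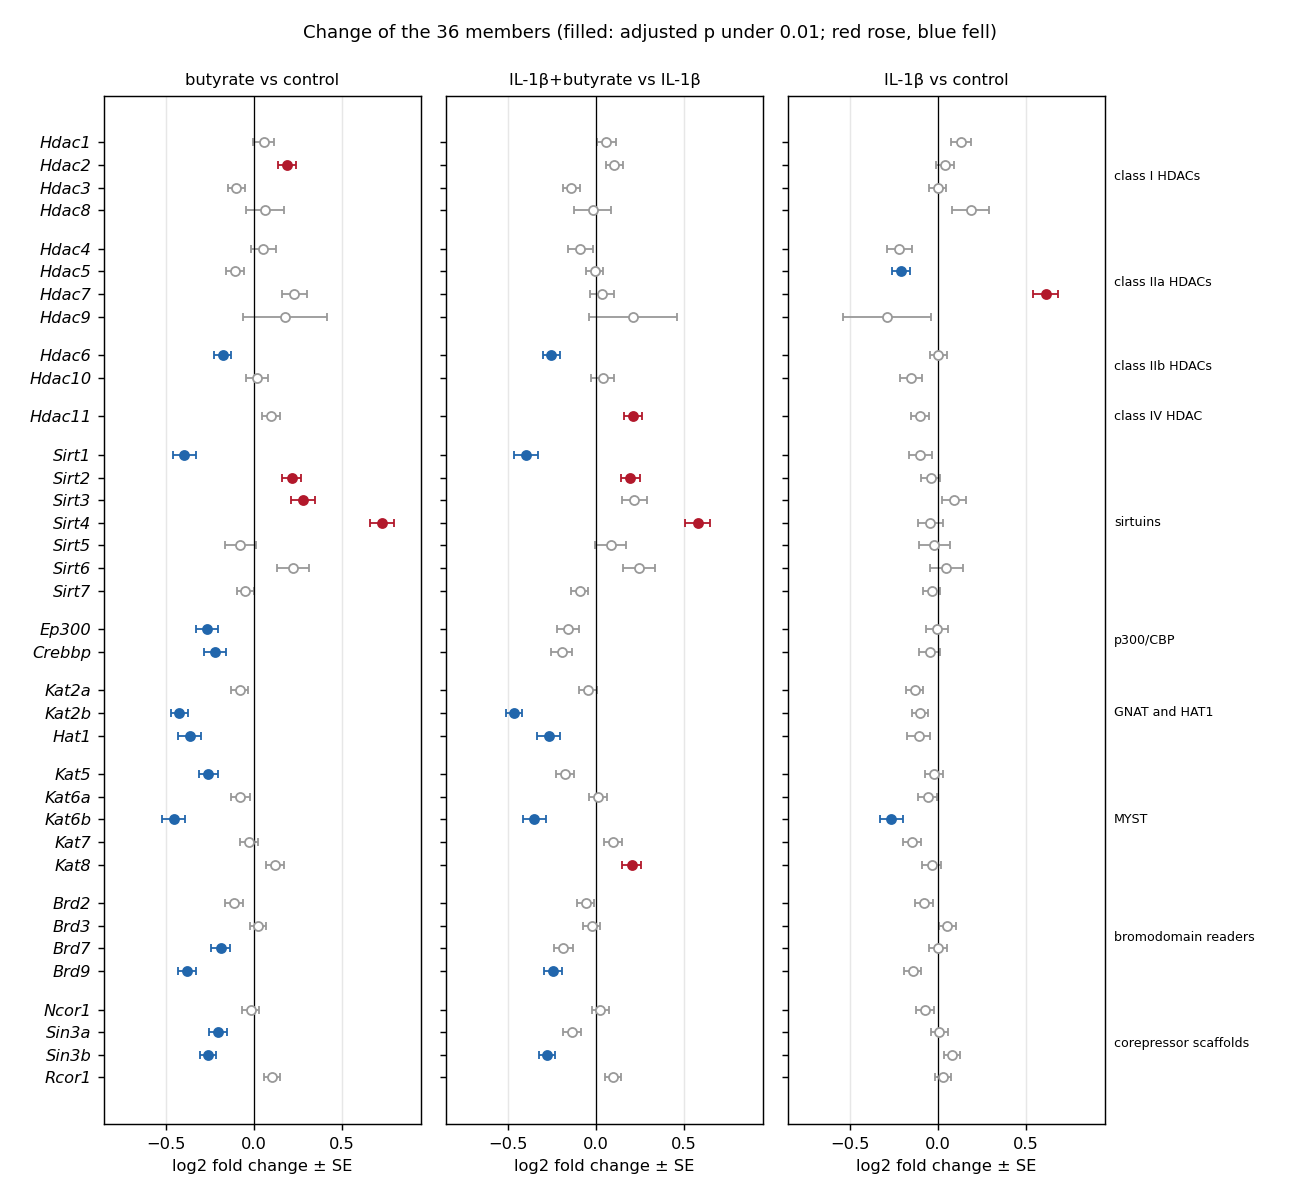
Log2 fold change ± SE of the 36 members in the butyrate comparison, in the comparison of IL-1β+butyrate with IL-1β, and in the IL-1β comparison (4 libraries per condition). Filled points passed an adjusted p under 0.01 in edgeR, red for higher and blue for lower. Sirt4 stands at 0.73 and 0.58 in the butyrate comparisons, and Hdac7 at 0.61 with IL-1β.

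Among the erasers, Sirt4 rose most. Sirt4, a mitochondrial sirtuin known to restrain amino acid-stimulated insulin secretion, lies on chromosome 5 (GRCm38, 115478010 to 115484725, minus strand). It stood at 12.4, 12.6, 13.4 and 12.9 CPM in the control libraries and at 20.99, 20.8, 22.4 and 20.9 CPM in the butyrate libraries. All butyrate libraries were above all control libraries, and they differed little among themselves. The fold change was 1.66 (log2 0.73, SE 0.068, edgeR adjusted p = 5.06e-09).

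The other sirtuins did not move as a group. Sirt3, the main deacetylase of mitochondria, rose by 21.4% (log2 0.28, SE 0.070, edgeR adjusted p = 0.00286), and Sirt2, a mostly cytoplasmic sirtuin, rose by 16.1% (log2 0.22, SE 0.053, edgeR adjusted p = 0.00261). The lowest butyrate library of Sirt2, at 71.1 CPM, lay just below the highest control library, at 71.2 CPM. Sirt1, a nuclear sirtuin that supports insulin secretion in beta cells, fell instead. By library, with Sirt1 shown after its values were seen, it stood at 19.9 to 21.2 CPM in control islets and at 17.0, 14.97, 15.9 and 15.1 CPM with butyrate, without overlap (log2 -0.39, SE 0.067, edgeR adjusted p = 5.11e-05). Sirt5, Sirt6 and Sirt7 had log2 fold changes of -0.08, 0.22 and -0.05 and did not pass the test. Exons of Sirt3 share 760 of 5973 bases with genes on the opposite strand, and of these Ric8a had a log2 fold change of -0.18 and Psmd13 of -0.03.

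Hdac2 was the class I HDAC that rose, by 14% (log2 0.19, SE 0.050, edgeR adjusted p = 0.00508). Its butyrate libraries held 97.8, 98.0, 99.2 and 88.8 CPM and its control libraries 82.8 to 86.3 CPM, values shown after they were seen. Hdac1, Hdac3 and Hdac8 did not pass the test, with log2 fold changes of 0.06 (95% interval -0.061 to 0.174), -0.10 (-0.198 to 0.001) and 0.07 (-0.154 to 0.287). Summed per kb, the 4 class I genes stood at 43.2 ± 0.968 CPM per kb in control islets and 45.4 ± 1.88 with butyrate (SD, n = 4). No class IIa gene passed the test, with log2 fold changes from -0.11 for Hdac5 to 0.23 for Hdac7. Hdac6, the cytoplasmic deacetylase of tubulin, fell by 11.4% (log2 -0.17, SE 0.048, edgeR adjusted p = 0.00694), while Hdac10 and Hdac11 had log2 fold changes of 0.02 and 0.10 and did not pass.

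Among the 10 writers, 6 fell and none rose, beside 11.4% of all genes that fell and 8.53% that rose. Kat6b, a MYST acetyltransferase of histone H3, showed the largest fall of any member. It stood at 72.8, 61.9, 68.5 and 65.7 CPM in control islets and at 47.1, 48.5, 46.4 and 54.0 CPM with butyrate, values shown after they were seen. The conditions did not overlap, and the fall was 27% (log2 -0.45, SE 0.065, edgeR adjusted p = 7.18e-06). Its close relative Kat6a had a log2 fold change of -0.08 and did not pass the test.

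Kat2b (PCAF), a GNAT coactivator that acetylates histone H3, fell by 25.3% (log2 -0.42, SE 0.047, edgeR adjusted p = 9.90e-08). Its values, shown after they were seen, were 78.6, 75.0, 80.4 and 72.2 CPM in control islets and 56.2, 56.5, 57.7 and 58.2 CPM with butyrate. The butyrate libraries lay close together and below every control library. Its relative Kat2a (GCN5) had a log2 fold change of -0.08 and did not pass. In control islets Kat2b stood above Kat2a, at 15.7 ± 0.754 and 11.7 ± 0.280 CPM per kb, and with butyrate they stood at 11.7 ± 0.204 and 11.1 ± 0.441 CPM per kb (SD, n = 4).

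Hat1 fell by 22.2% (log2 -0.36, SE 0.065, edgeR adjusted p = 9.59e-05), from 17.8 to 18.97 CPM in control libraries to 13.8 to 14.9 CPM with butyrate. Ep300 (log2 -0.27) and Crebbp (log2 -0.22), the general coactivators p300 and CBP, both fell, with edgeR adjusted p = 0.00196 and 0.00688. Kat5 (TIP60), the catalytic subunit of the NuA4 complex, fell by 16.3% (log2 -0.26, SE 0.053, edgeR adjusted p = 0.000456). Exons of Kat5 share 426 of 3509 bases with Rnaseh2c, which had a log2 fold change of -0.49 in the same comparison, and reads of the shared bases cannot be assigned. Kat7 and Kat8 had log2 fold changes of -0.03 and 0.12 and did not pass.

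Annotated pseudogenes of members held few reads. Kat2b had 1090 to 1914 counts in a library where Kat2b-ps had 0 to 4, and Kat6b had 887 to 1581 where Kat6b-ps1 and Kat6b-ps2 had at most 3 each. The Hdac1 pseudogene Gm10093 had 8 to 22 counts beside 671 to 916 for Hdac1.

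Of the 4 readers, Brd7 and Brd9 fell, both of which are subunits of SWI/SNF remodelling complexes. Brd9 fell by 23.1% (log2 -0.38, SE 0.051, edgeR adjusted p = 2.02e-06), from 33.1, 30.8, 32.3 and 31.6 CPM in control islets to 24.0, 24.7, 24.7 and 24.9 CPM with butyrate, values shown after they were seen. The butyrate libraries were nearly equal and all below the control libraries. Brd7 fell by 12.2% (log2 -0.19, edgeR adjusted p = 0.00872). The BET proteins Brd2 and Brd3, which bind acetylated histone tails at active genes, had log2 fold changes of -0.11 and 0.03 and did not pass.

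The SIN3 scaffolds, on which Hdac1 and Hdac2 are assembled, fell, Sin3b by 16.3% (log2 -0.26, SE 0.046, edgeR adjusted p = 9.15e-05) and Sin3a by 13% (log2 -0.20, SE 0.050, edgeR adjusted p = 0.00322). Ncor1 and Rcor1, scaffolds of the NCOR and CoREST complexes, had log2 fold changes of -0.02 and 0.11 and did not pass.

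**Figure D3:**
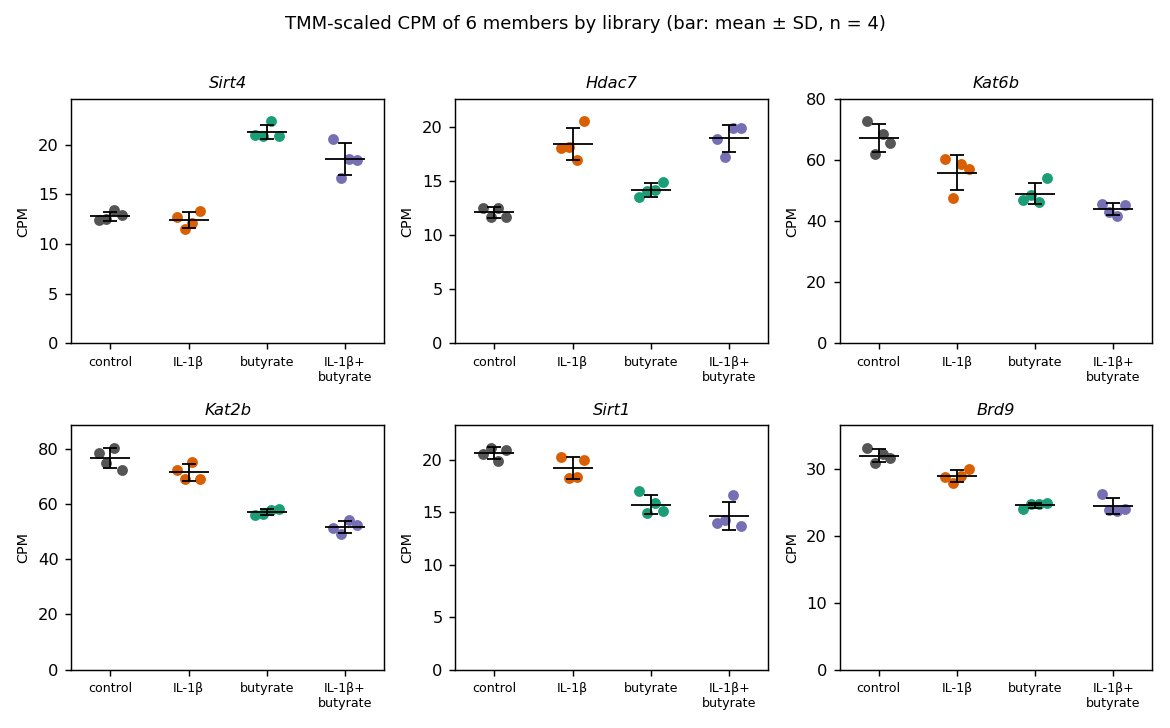
TMM-scaled CPM of Sirt4, Hdac7, Kat6b, Kat2b, Sirt1 and Brd9 in each of the 16 libraries, with mean ± SD (n = 4 per condition). Sirt4 lies at 20.8 CPM or above with butyrate and at 13.4 CPM or below in control islets, and Kat2b, Kat6b, Sirt1 and Brd9 are lower with butyrate without overlap.

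Several of these calls were lost when 1 library was left out, while the fold changes kept their direction. Without butyrate replicate 3, the number of members called dropped to 9. Kat6b, Kat2b, Brd9, Sirt1, Sirt4, Hat1, Kat5 and Sin3b passed whichever library was left out. Ep300 lost its call without butyrate replicate 3 (edgeR adjusted p = 0.0104) and with upper-quartile scaling (0.0118). Sirt2 lost it without control replicate 1 or butyrate replicate 3 or 4 (0.0119 to 0.0168), Sirt3 without control replicate 2 or butyrate replicate 3 or 4 (0.011 to 0.019), and Sin3a without control replicate 1 or 3 or butyrate replicate 2 (0.0101 to 0.0187). Hdac2 lost it without control replicates 2, 3 or 4 or butyrate replicates 1, 2 or 3 (0.0153 to 0.0216), Hdac6 without control replicates 1, 3 or 4 or butyrate replicates 2, 3 or 4 (0.0109 to 0.0345), Crebbp without control replicates 1, 3 or 4 or butyrate replicates 1, 2 or 3 (0.0115 to 0.0404), and Brd7 without any control replicate or butyrate replicates 2, 3 or 4 (0.0162 to 0.0461). Other settings took calls away as well. Sin3a and Brd7 also lost theirs with upper-quartile scaling, Sirt2 and Sirt3 with library size alone, and Hdac2 with no filter on low counts. Brd7 did not pass with DESeq2 either (DESeq2 adjusted p = 0.0102).

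The same question was asked in the presence of IL-1β, with other libraries on both sides. In IL-1β+butyrate against IL-1β, 11 members changed, 30.6% of the group beside 19.5% of all genes and 25.6% of genes in the members' expression range. Of these, 4 rose (11.1% of members, 8.41% of all genes) and 7 fell (19.4% of members, 11.1% of all genes). With upper-quartile scaling 7 rose and 7 fell, beside 57.7% of all called genes that rose in that fit.

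Sirt4 again rose most, from 12.7, 11.5, 12.1 and 13.3 CPM with IL-1β to 20.6, 16.6, 18.6 and 18.5 CPM with IL-1β+butyrate. The conditions did not overlap, and the combination varied more than butyrate alone had. The fold change was 1.49 (log2 0.58, SE 0.069, edgeR adjusted p = 3.21e-07). Sirt2 rose by 14.6% (log2 0.20, edgeR adjusted p = 0.0058). Hdac11, the class IV enzyme, rose by 15.8% (log2 0.21, edgeR adjusted p = 0.00251) and Kat8 (MOF), which acetylates lysine 16 of histone H4, by 15.1% (log2 0.20, edgeR adjusted p = 0.00375). Exons of Hdac11 share 690 of 3849 bases with genes on the opposite strand. Exons of Kat8 share 122 of 2891 bases with Prss8, which fell in the same comparison (log2 -1.37).

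Among those that fell, Kat2b was at 72.3, 69.1, 75.4 and 69.1 CPM with IL-1β and 51.3, 49.2, 54.2 and 52.5 CPM with the combination (log2 -0.46, SE 0.047, edgeR adjusted p = 2.31e-08). Sirt1 (log2 -0.40, SE 0.068, edgeR adjusted p = 5.58e-05) and Kat6b (log2 -0.35, SE 0.066, edgeR adjusted p = 0.000238) had the next largest falls. Kat6b stood at 60.4, 47.5, 58.7 and 57.1 CPM with IL-1β and 45.6, 43.2, 41.6 and 45.4 CPM with the combination, so IL-1β replicate 2 came close to the combination. Sin3b (-0.28), Hat1 (-0.27), Hdac6 (-0.25) and Brd9 (-0.24) fell by smaller log2 amounts. No class I or class IIa gene and neither Ep300 nor Crebbp passed the test, with log2 fold changes of -0.16 and -0.19 for the last pair. With the replicate number as a block, Crebbp passed, as did Sirt6, Brd7, Kat5, Sirt3 and Sin3a.

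Kat2b, Kat6b, Sirt1, Sirt4, Brd9, Sin3b and Hdac6 passed in this comparison whichever library was left out. Hat1 lost its call without IL-1β replicate 2 (edgeR adjusted p = 0.012). Hdac11 lost it without IL-1β replicates 1 or 3 or IL-1β+butyrate replicates 1 or 3 (0.0122 to 0.0257), Sirt2 without IL-1β replicates 1, 2 or 3 or IL-1β+butyrate replicates 2, 3 or 4 (0.0146 to 0.0521), and Kat8 without IL-1β replicates 1, 2 or 3 or any IL-1β+butyrate replicate (0.0109 to 0.027).

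The butyrate comparisons share no library, although libraries with the same replicate number may come from the same experiment. Of the 16 members called with butyrate alone, 16 had the same sign in the presence of IL-1β and 9 (56.2%) were also called, 7 lower and 2 higher. Of all 3697 genes called with butyrate alone, 98.6% had the same sign and 67.7% were also called. The share of members depended on the fit. With the replicate number as a block, Crebbp, Brd7, Kat5, Sirt3 and Sin3a were called in the presence of IL-1β as well. The share over all genes was not taken in that fit. Over all 36 members, 29 had the same sign in both. As a description, the log2 fold changes of the 36 members had a Pearson r of 0.936 and a Spearman rho of 0.916 between the comparisons. These were not taken over all genes.

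The difference between the butyrate effects was then tested itself. In edgeR, 0 of 36 members differed at an adjusted p under 0.01, beside 0.0968% of all genes (18 of 18587), and 0 members had an unadjusted p under 0.05. With DESeq2 0 members were called and 0 had an unadjusted p under 0.05. The estimates ran from -0.20 for Hdac7 to 0.16 for Sirt5, and the lowest unadjusted p was 0.0568 for Hdac7 in edgeR. Apart from Hdac9, whose 95% interval was -0.697 to 0.767, the intervals of the members lay between -0.397 and 0.415. For Sirt4 the interval was -0.351 to 0.046, for Kat2b -0.178 to 0.093 and for Kat6b -0.085 to 0.298.

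**Figure D4:**
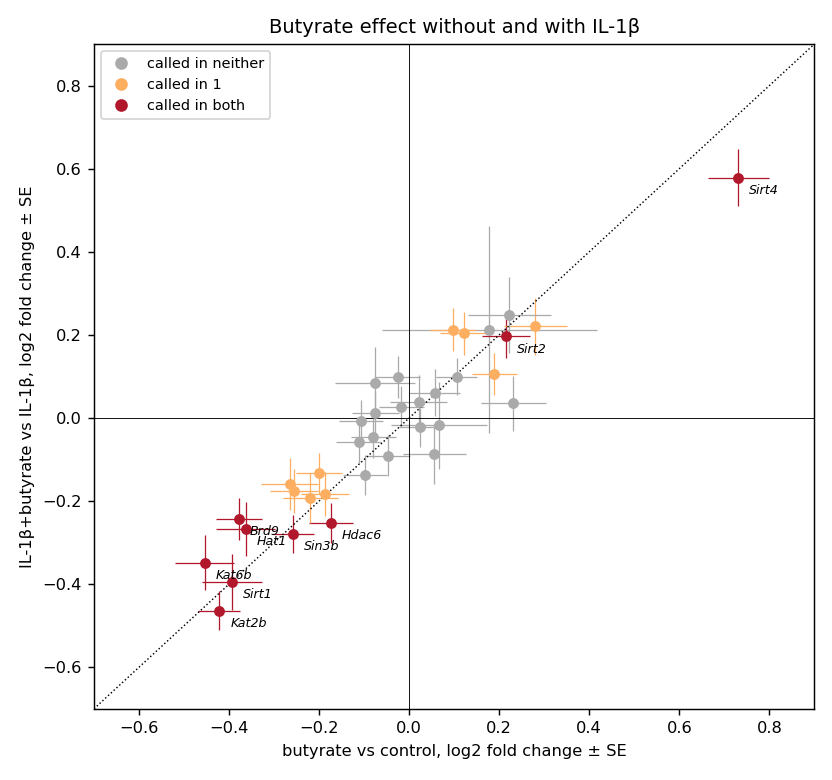
Log2 fold change ± SE of each member with butyrate against control (horizontal) and with IL-1β+butyrate against IL-1β (vertical). The dotted line marks equal effects. The 9 members called in both lie in the lower left (7) and upper right (2), with Sirt4 at 0.73 and 0.58.

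IL-1β alone left most of the machinery without a call. Of the 36 members, 3 changed, 8.33% of the group beside 17.8% of all genes. The share over the members' expression range was not taken for this comparison. Hdac7 was the member that rose (2.78% of members, 11.2% of all genes), and Hdac5 and Kat6b fell (5.56% of members, 6.59% of all genes). With library size alone 2 members were called, both higher, and with upper-quartile scaling 6 were called, 1 higher and 5 lower. Of all called genes, 79.8% were higher with library size alone and 51.5% with upper-quartile scaling.

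Hdac7, a class IIa enzyme prominent in lymphoid, endothelial and myeloid cells, lies on chromosome 15 (GRCm38, 97792664 to 97844502, minus strand). It stood at 12.5, 11.7, 12.5 and 11.6 CPM in control islets and at 18.0, 18.1, 17.0 and 20.5 CPM with IL-1β. All IL-1β libraries were higher than all control libraries. The fold change was 1.53 (log2 0.61, SE 0.070, edgeR adjusted p = 1.01e-07). With IL-1β+butyrate it stood at 18.8, 17.2, 19.8 and 19.8 CPM, a log2 fold change of 0.04 from IL-1β (95% interval -0.102 to 0.172), and with butyrate alone at 13.5, 14.04, 14.2 and 14.9 CPM, above every control library, although with an adjusted p = 0.0161 in edgeR.

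Markers of macrophages moved with IL-1β as well. All 8 passed the test, 7 higher and 1 lower, and their summed level was 125 to 140 CPM in control libraries, 165 to 198 with IL-1β, 82.6 to 104 with butyrate and 91.3 to 119 with the combination. Most of this sum was C1qa, the marker that fell, at 99.6 to 124 CPM in control libraries. The other 7 markers, summed after their values were seen, stood at 15.5 to 25.9 CPM in control libraries, 74.1 to 130 with IL-1β, 12.1 to 21.1 with butyrate and 33.1 to 72.5 with the combination. Their sum was thus higher than in control islets in both conditions with IL-1β, as was Hdac7. Between these conditions the sum was lower with the combination than with IL-1β alone, while Hdac7 had a log2 fold change of 0.04. With the combination 5 of the 8 were higher than in control islets and C1qa was lower. The part of macrophages in the result was not tested. T cell markers summed to at most 3.63 CPM in any library, and 2 of the 6 had at most 3 counts everywhere. Duct markers rose as well, 3 of 5, from a summed 341 to 368 CPM in control islets to 502 to 600 CPM with IL-1β. Most of the control sum was Krt7, at 322.3 to 351.9 CPM. Spp1 stood at 8.12 to 14.38 CPM in control libraries and 96.42 to 206.8 CPM with IL-1β, and Sox9 at 1.755 to 2.389 and 1.293 to 2.191 CPM. Markers of endothelial cells summed to 3.63 to 4.30 CPM in control islets and 4.50 to 6.01 CPM with IL-1β.

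Hdac5, a class IIa enzyme of the same family, fell by 13.5% with IL-1β (log2 -0.21, SE 0.050, edgeR adjusted p = 0.00191) and kept its call whichever library was left out, though not with library size alone. Kat6b fell by 16.8% (log2 -0.26, SE 0.065, edgeR adjusted p = 0.00287), a call that was lost without control replicate 1 or 3 or IL-1β replicate 2 (0.0111 to 0.0141). Without IL-1β replicate 1 the number of members called was 5. Beta cell markers fell with IL-1β as well, 7 of 9 lower and 1 higher, and their part in these falls was not tested. The sirtuins did not pass the test, with log2 fold changes from -0.10 to 0.09, and neither did any class I enzyme, with values from -0.0012 for Hdac3 to 0.19 for Hdac8. Brd2 had a log2 fold change of -0.08, with 765 of its 7826 exon bases shared with genes on the opposite strand, among them H2-DMa, which had a log2 fold change of 1.28.

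IL-1β+butyrate was also set against control, a comparison that shares libraries with those above. Here 18 members changed, 50.0% of the group beside 30.6% of all genes. The share over the members' expression range, which was above that of all genes in the butyrate comparisons, was not taken here. Of these 5 rose (13.9% of members, 15.8% of all genes) and 13 fell (36.1% of members, 14.8% of all genes). The split was 8 higher and 13 lower with upper-quartile scaling and 10 higher and 6 lower with library size alone. Of all called genes, 54.4% and 66.9% were higher in these fits. The members that rose were Hdac7 (log2 0.65), Sirt4 (0.54), Sirt3 (0.31), Hdac1 (0.19) and Kat8 (0.17). Kat8 lost its call whichever library was left out (edgeR adjusted p = 0.0105 to 0.0422).

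Kat6b fell furthest, by 34.6% (log2 -0.61, SE 0.066, edgeR adjusted p = 3.18e-08). Its separate log2 fold changes were -0.26 with IL-1β and -0.45 with butyrate. Kat2b fell by 32.3% (log2 -0.56, SE 0.047, edgeR adjusted p = 1.64e-10), beside -0.10 with IL-1β and -0.42 with butyrate. All 3 GNAT and HAT1 genes fell, and their summed level was 33.8 ± 0.981 CPM per kb in control islets, 31.3 ± 1.09 with IL-1β, 27.8 ± 0.561 with butyrate and 25.9 ± 1.12 with the combination (SD, n = 4). Summed sirtuin levels were 43.7 ± 0.654, 43.0 ± 2.23, 49.7 ± 1.11 and 48.0 ± 1.65 CPM per kb in the same order. Hdac4 fell with the combination (log2 -0.31, edgeR adjusted p = 0.00103), although 3536 of its 15813 exon bases are shared with the noncoding gene Gm26720 on the opposite strand. The other members that fell were Sirt1, Brd9, Hat1, Hdac6, Crebbp, Hdac5, Kat5, Sin3b, Brd7 and Kat2a, with log2 fold changes from -0.49 to -0.18. Crebbp lost its call without control replicate 1 (edgeR adjusted p = 0.0157), Kat5 without control replicates 1 or 2 or IL-1β+butyrate replicate 4 (0.0109 to 0.0127), and Kat2a without control replicates 1, 2 or 3 or IL-1β+butyrate replicate 2 (0.012 to 0.0284). Hdac1 lost it without control replicates 1, 2 or 4 or IL-1β+butyrate replicates 2, 3 or 4 (0.0179 to 0.0245), and Brd7 without any control replicate or IL-1β+butyrate replicates 1 or 4 (0.0132 to 0.0363).

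The machinery works through complexes, and 125 genes of partner proteins in 8 lists were followed in the same fit, of which 124 were tested. With butyrate 37 of them changed, 29.8% beside the 19.9% of all genes and 27.3% of genes in the members' expression range. Of these, 14 were higher and 23 lower. In the presence of IL-1β, 42 changed, 33.9% beside the 19.5% of all genes and 25.6% in that range, 16 higher and 26 lower. No share was taken over the partners' own expression range. With IL-1β alone 14 changed, 11.3% beside the 17.8% of all genes, 6 higher and 8 lower. The difference of the butyrate effects was called for 0 partners in edgeR and in DESeq2.

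Of the 24 partners of the MYST enzymes in the NuA4, MOZ/MORF, HBO1 and MOF complexes, 11 fell with butyrate, beside 11.4% of all genes, and 13 did not pass the test. In the presence of IL-1β 9 fell, beside 11.1% of all genes, and 15 did not pass. None rose in either comparison. The median log2 fold change of the 24 was -0.13 and -0.05. Brpf3, a scaffold that directs MYST enzymes to histone H3, fell most (log2 -0.70, SE 0.054, edgeR adjusted p = 2.13e-10, and -0.64 with IL-1β present). Jade2, a scaffold of HBO1, fell by 31.4% (log2 -0.54, edgeR adjusted p = 3.49e-07). Epc1, which holds the catalytic core of NuA4 together, fell by 31.0% (log2 -0.54, edgeR adjusted p = 1.49e-09), and its relative Epc2, named after its value was seen, fell by 27.1% (log2 -0.46, edgeR adjusted p = 5.79e-08).

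Of the 14 NCOR and CoREST partners, 6 rose with butyrate, beside 8.53% of all genes, 1 fell and 7 did not pass the test. Rcor2, a CoREST scaffold related to Rcor1, rose 2.11-fold (log2 1.08, SE 0.079, edgeR adjusted p = 7.14e-11) and 2.05-fold in the presence of IL-1β (log2 1.04). Tbl1xr1, a core subunit of NCOR, rose by 35.9% (log2 0.44, edgeR adjusted p = 5.71e-06), and Hmg20b, a CoREST subunit, by 21.1% (log2 0.28, edgeR adjusted p = 0.000133). With IL-1β alone Hmg20b rose by 22.9% (log2 0.30), and with IL-1β present its butyrate log2 fold change was 0.12 and did not pass.

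Of the 15 NuRD and MiDAC genes, 2 rose and 1 fell with butyrate, 20% called beside the 19.9% of all genes. Chd4, the NuRD remodelling ATPase, rose by 24.4% (log2 0.32, edgeR adjusted p = 8.02e-06), Gatad2b had a log2 fold change of 0.18 with an edgeR adjusted p of 0.0087 that was lost in 10 of 25 alternatives (up to 0.0518), and Mbd3, which is a NuRD subunit, fell by 29.7% (log2 -0.51, edgeR adjusted p = 1.51e-08). Of 12 SIN3 subunits, Brms1 (log2 -0.31) and Sap30l (log2 -0.23) fell and none rose. Of 17 SAGA and ATAC genes, which work with Kat2a and Kat2b, Atxn7 fell (log2 -0.30, edgeR adjusted p = 0.000595) and none rose. The share called was 16.7% of the SIN3 list and 5.88% of the SAGA and ATAC list, below the 19.9% of all genes. The Brms1 call was lost without control replicate 1 or butyrate replicates 3 or 4 (up to 0.0185). The Sap30l call was lost with upper-quartile scaling and without control replicates 1 or 4 or butyrate replicates 1, 2 or 4 (up to 0.0278). The Gatad2b call was lost with library size alone, with no filter on low counts, and without control replicates 2, 3 or 4, IL-1β replicate 3, IL-1β+butyrate replicate 3 or butyrate replicates 1, 2 or 4. Of the 6 genes of p160 coactivators and CITED proteins, 16.7% were called, below the 19.9% of all genes, with Ncoa3 higher (log2 0.30, edgeR adjusted p = 0.000212).

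Among 27 other acetyl-lysine readers, 2 rose and 4 fell with butyrate, 22.2% called beside the 19.9% of all genes. Atad2, a bromodomain ATPase known to be expressed in dividing cells, fell by 51.9% (log2 -1.06, SE 0.128, edgeR adjusted p = 6.70e-06), Yeats4 by 22% (log2 -0.36, edgeR adjusted p = 6.52e-06), and Zmynd8 rose by 35.1% (log2 0.43, edgeR adjusted p = 3.14e-08). Of 9 tested genes that supply acetyl-CoA or NAD, 3 rose and 3 fell, 66.7% called beside the 19.9% of all genes. Naprt and Nmnat3, enzymes of NAD synthesis, rose by 57.2% and 33.6% (log2 0.65 and 0.42, edgeR adjusted p = 0.000139 and 0.000172), and Crat, the carnitine acetyltransferase, fell by 22.4% (log2 -0.37, edgeR adjusted p = 0.000455). Naprt also rose with IL-1β alone, 2.35-fold (log2 1.24, edgeR adjusted p = 2.33e-09).

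**Figure D5:**
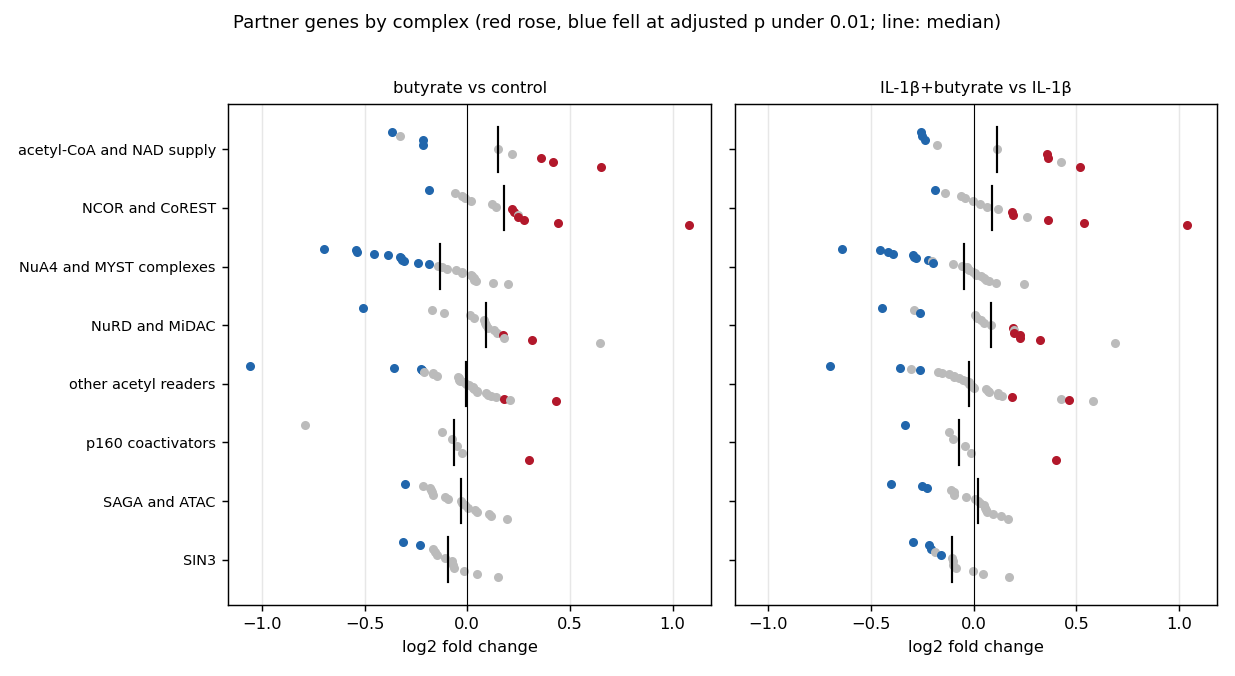
Log2 fold change of 124 partner genes with butyrate against control (left) and with IL-1β+butyrate against IL-1β (right), by complex. Red and blue points were higher or lower at an adjusted p under 0.01 in edgeR, and the line is the list median, which is -0.13 and -0.05 for the NuA4 and MYST complexes.

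Of the genes known to respond to HDAC inhibition, the linker histone gene H1f0 rose by 30.8% with butyrate (log2 0.39, edgeR adjusted p = 2.23e-06) and by 35.3% in the presence of IL-1β, whereas Cdkn1a, which encodes the cell cycle inhibitor p21, fell by 40.1% (log2 -0.74, edgeR adjusted p = 4.44e-07) and 36.5%.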

How the data were processed

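RNA was sequenced from 16 libraries of mouse islets, 4 per condition, with single-end reads (NEBNext Ultra II RNA kit). According to the submitters' processing notes, the authors used bcl2fastq 2.19.1, FastQC 0.11.7 and MultiQC 1.7 and aligned reads with STAR 2.5.3a to GRCm38.p5 (mm10). The deposited values are whole-number counts per gene, not normalized. The annotation release, strand setting and read filters are not given in the sources used here, and 0 columns belonged to other samples.

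Symbols, exon lengths and overlaps were taken from GENCODE M21, where 52489 of 52636 gene identifiers were found. In R 4.3.3, edgeR 4.0.16 (filterByExpr, TMM, robust quasi-likelihood, 4 condition means over 16 libraries) gave 18587 tested genes. A gene was called when its p, adjusted by Benjamini-Hochberg, lay under 0.01, the threshold of the study, which itself used DESeq2. CPM values are TMM-scaled. The alternatives were DESeq2 1.42.0, other scalings and filters, an adjusted p under 0.05, fits of only the groups compared, a replicate block and leaving out each library. The edgeR fit was tested on simulated data. Libraries of a condition differed by more than counting error, with a chi-square per gene of 1.72 to 13.5. Reads carried no molecular identifiers.

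The members, partner lists and markers were chosen with earlier results of these data known. Values in every library were given for members called with an absolute log2 fold change of at least 0.5 in the butyrate comparisons or with IL-1β, or called in the difference of the butyrate effects, and partners were named when among the 3 largest changes called in their list with butyrate. Members with values in every library outside this rule are said to be shown after their values were seen.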

Additional observations from a re-analysis of the deposited data

Results flagged for a closer look

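In 7 of 144 groups of 4 libraries, 1 library lay far from the other 3 by Dixon's ratio, where chance alone gives about 1 in 20 groups. For members that rose or fell, these were Hdac2 in butyrate replicate 4 (88.8 CPM, the others 97.8 to 99.2), Sirt4 in butyrate replicate 3 (22.4 CPM, the others 20.8 to 20.99), Kat5 in butyrate replicate 4 (23.2 CPM, the others 26.6 to 26.96) and Brd9 in IL-1β+butyrate replicate 1 (26.3 CPM, the others 23.6 to 23.9). For members without a call in these comparisons, they were Hdac8 in IL-1β replicate 3 (9.90 CPM, the others 6.96 to 7.39), Hdac9 in control replicate 1 (2.29 CPM, the others 4.49 to 4.75) and Sirt6 in IL-1β+butyrate replicate 2 (21.7 CPM, the others 25.4 to 25.8). Butyrate replicate 4 held the outlying value for both Hdac2 and Kat5.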

How the results depend on the processing

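Over 25 alternatives, the 48 member calls kept their direction in every fit, with 1079 of the refits on the same side of the threshold and 121 no longer past it. The threshold of 0.05 could not take a call away, and leaving out a library outside the comparison seldom did. With butyrate, 16 members were called in each fit without an IL-1β or IL-1β+butyrate library, and 9 to 14 without a control or butyrate library. The number of members called with butyrate was 16, with 9 to 16 when a library was left out, and 15 with DESeq2. In IL-1β+butyrate against IL-1β it was 11, with 8 to 13 when a library was left out, and 18 at an adjusted p under 0.05. With IL-1β it was 3, with 2 to 5 when a library was left out (5 without IL-1β replicate 1), 6 with upper-quartile scaling and 6 at an adjusted p under 0.05. In IL-1β+butyrate against control it was 18, with 13 to 18 when a library was left out, and 27 at an adjusted p under 0.05. No scaling moved the median of all genes by more than 0.1 on the log2 scale. Partners called with IL-1β numbered 14, with 9 without control replicate 3.

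The replicate number as a block gave 18 members called with butyrate, 17 in IL-1β+butyrate against IL-1β, 5 with IL-1β and 23 in IL-1β+butyrate against control. In IL-1β+butyrate against IL-1β the block added Crebbp (edgeR adjusted p = 0.00136), Sirt6 (0.00237), Brd7 (0.00304), Kat5 (0.00383), Sirt3 (0.0054) and Sin3a (0.00957). With butyrate it added Sirt6 (0.00727) and Hdac7 (0.00759), and with IL-1β Hdac4 (0.00071) and Kat7 (0.00771). The labels do not say that a number marks a shared islet pool or batch, although their library numbers run through the 4 conditions within each replicate number. Of 24 pairs of libraries with the same number, 17 had a correlation of deviations over 0.1 (0.053 to 0.397, other pairs -0.293 to 0.17), and 14 of 16 libraries were closest to their own number, which is a hint that the numbers pair the libraries. Depth limited Hdac9 most, with at least 41 counts in a library.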
